A study of Mus musculus with 3 samples.

Results

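Claudins, occludin and ZO-1 are the membrane and scaffold proteins of the tight junction, and 10 of their genes were followed here in cultured kidney tubule cells: Cldn1, Cldn2, Cldn3, Cldn4, Cldn7, Cldn10, Cldn16, Cldn19, Ocln and Tjp1. They were found by their gene name on the array, which gave 9 genes with 13 probes, and Cldn10 was found under the array name Cldn10a. The 10 genes thus had 14 probes, out of 19862 named genes and 41174 probes on the array. The cells were mPTECs, an abbreviation kept as the labels give it, from kidneys of male mice aged 1 month. They were measured after 0 days (freshly isolated), 1 day and 3 days on culture dishes, in DMEM/F12 medium that held insulin, transferrin, selenium, hydrocortisone and 1% FBS. No genotype or strain enters the comparison, and the labels do not say whether animals were pooled. Each day was 1 Cy3-labelled sample on 1 Agilent 1-colour array, and without replicates the days could not be tested against each other. Every value describes these 3 arrays.

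A signal is given as a multiple of the 75th percentile of its array, which was 1184 intensity units on day 0, 1509 on day 1 and 1515 on day 3. Every probe of the 10 genes was 1 spot, well above background on all 3 arrays, and none was saturated. For probes printed in several spots, the log2 signals of those spots had a median SD of 0.14 (n = 699), which gives a ratio between arrays an SD of 0.20, or 1.15-fold. Probes of 1 gene differed more: the median SD of their log2 ratio was 0.34 for day 1 over day 0 (n = 7529), 0.47 for day 3 over day 0 (n = 7577) and 0.27 for day 3 over day 1 (n = 7575). Both are technical spreads and hold nothing of the spread between cultures. A difference of at least 4-fold was counted, and signals of different probes are not compared with each other.

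Claudins cross the membrane and meet their partners on the neighbouring cell, and the mix of claudins in a tubule segment sets which ions and how much water pass between cells. Pore claudins open such a path (Cldn2 for cations and water and the a form of Cldn10 for anions in the proximal tubule, Cldn16 and Cldn19 for calcium and magnesium in the thick ascending limb). Barrier claudins such as Cldn1, Cldn3, Cldn4 and Cldn7 tighten it or are best known from the distal nephron, collecting duct and other tight epithelia. Ocln is a membrane protein of the MARVEL family, and Tjp1, or ZO-1, is the scaffold that ties claudins and occludin to actin.

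Both claudins of the proximal tubule path were far lower in culture. Cldn10 measured 24.3, 4.35 and 2.10 times the percentile on day 0, day 1 and day 3. It was 5.59-fold lower on day 1 and 11.6-fold lower on day 3, each against day 0, and 2.07-fold lower on day 3 than on day 1. Its probe lies at chr14:119273459-119273518 (mm9, plus strand) and begins at base 657 of the transcript. The file's description calls that transcript both claudin 10A and a variant b, and as background the a form belongs to the proximal tubule and the b form to the thick ascending limb, so which form the signal came from is not known from the files. The sequence shows what the array read as Cldn10.
Cldn10a probe: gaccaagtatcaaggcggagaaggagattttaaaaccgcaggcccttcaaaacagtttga
Cldn2 measured 9.25 times the percentile on day 0, 0.851 on day 1 and 1.00 on day 3. It was 10.9-fold lower on day 1 and 9.25-fold lower on day 3, each against day 0. Its level on day 3 lay within the probe spread of that on day 1, with a log2 ratio of 0.23, so the low level of Cldn2 was reached by day 1 while that of Cldn10 was lower again on day 3. The Cldn2 probe lies at chrX:136345244-136345303 (mm9, plus strand).

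**Figure D1:**
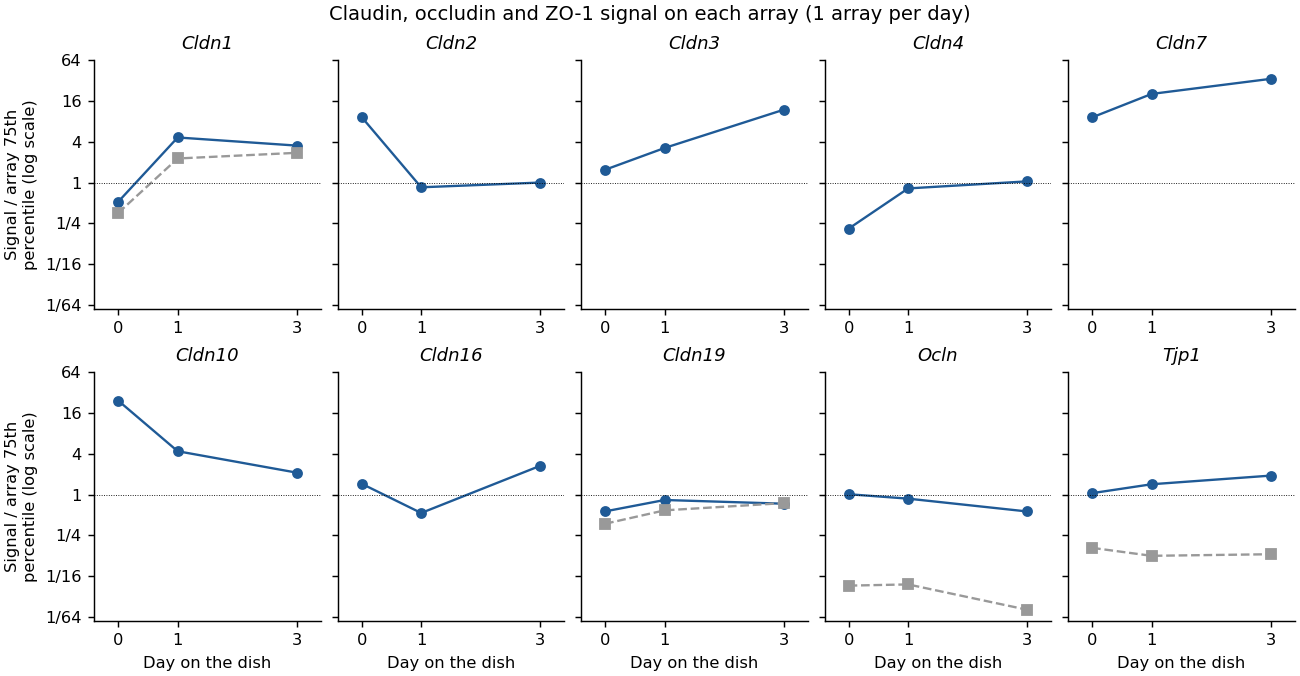
Signal of each of the 10 genes after 0, 1 and 3 days on the dish (x axis), as a multiple of the array's 75th percentile on a log scale (y axis), 1 array per day. Blue circles are the probe that stands for the gene and grey squares the other probe of Cldn1, Cldn19, Ocln and Tjp1. Cldn2 and Cldn10 were highest on day 0, Cldn3, Cldn4 and Cldn7 were highest on day 3, and Cldn16 was lowest on day 1.

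Other proximal tubule genes were lower as well. All 8 markers of that segment on the list were at least 4-fold lower on day 1 and on day 3 than on day 0. Their summed signal was 560 times the percentile on day 0, 52.2 on day 1 and 12.8 on day 3, and their median log2 ratio was -3.67 for day 1 over day 0 and -5.63 for day 3 over day 0. Cldn2 had -3.44 and -3.21 in the same 2 comparisons and Cldn10 -2.48 and -3.53. In a bulk sample, fewer cells of a type and less RNA per cell cannot be told apart.

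Of the claudins of the thick ascending limb, Cldn16 was lower on day 1, like the proximal pair, and higher on day 3, unlike it. Cldn16, or paracellin, measured 1.44 times the percentile on day 0, 0.534 on day 1 and 2.65 on day 3. It was 2.70-fold lower on day 1 than on day 0, 4.97-fold higher on day 3 than on day 1, and 1.84-fold higher on day 3 than on day 0 (a log2 ratio of 0.88, or 0.31 with arrays scaled on reference genes). It was the 1 gene of the 10 whose signal dipped and then passed its first level by more than the probe spread. With reference gene scaling Cldn16 passed that level by less than the spread of 0.47. Its single probe lies at chr16:26474305-26474364 (mm9, plus strand), begins at base 469 of the transcript, and is shown because the dip rests on it alone.
Cldn16 probe: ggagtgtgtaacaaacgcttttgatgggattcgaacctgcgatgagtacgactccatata
Cldn19, the partner with which Cldn16 forms its channel, had 2 probes. The brighter measured 0.564, 0.830 and 0.732 times the percentile on day 0, day 1 and day 3, and the other 0.370, 0.584 and 0.747. Their log2 ratios for day 1 over day 0 were 0.56 and 0.66. For day 3 over day 0 they were 0.38 and 1.01, and scaling on reference genes turned the sign of the brighter one (-0.19), so no direction is given for Cldn19 on day 3.

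Other thick ascending limb genes were lower on both days. All 6 markers of that segment other than the claudins were lower on day 1 than on day 0, 3 of them at least 4-fold, and all 6 were at least 4-fold lower on day 3. Their summed signal was 583 times the percentile on day 0, 111 on day 1 and 19.4 on day 3. The median log2 ratio of the 6 was -2.50 for day 1 over day 0 and -4.60 for day 3 over day 0, with a range of -7.37 to -3.06 on day 3. Cldn16 had -1.43 and 0.88 in those comparisons, so it lay within the range of the 6 on day 1 (-3.71 to -1.25) and above the highest of them on day 3. Umod, the uromodulin gene that defines the segment, measured 252, 79.4 and 12.2 times the percentile on day 0, day 1 and day 3. The part of these cells in the Cldn16 and Cldn19 values was not tested.

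**Figure D2:**
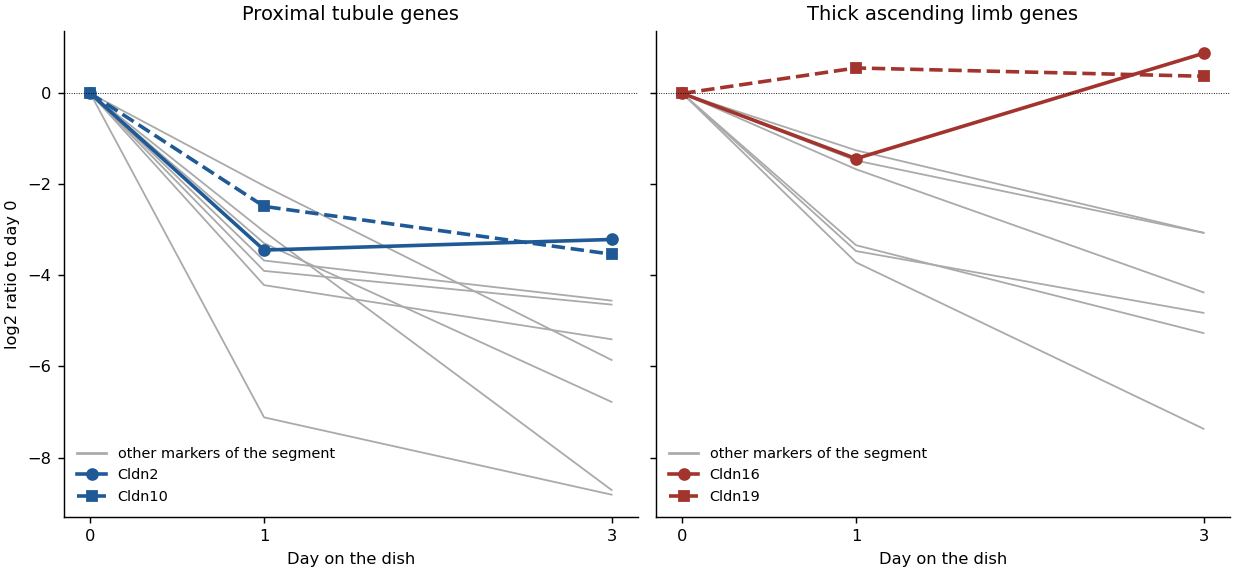
Log2 ratio to day 0 (y axis) against day on the dish (x axis) for claudins in colour and for the other listed markers of the segment in grey, 1 array per day. Left, Cldn2 and Cldn10 with the listed proximal tubule markers except Aqp1, which is not drawn, all lower on day 3 than on day 0. Right, Cldn16 and Cldn19 with 6 thick ascending limb markers, where every marker lay at or under -3.06 on day 3 and Cldn16 lay at 0.88. The Cldn10 probe may also read the form of the thick ascending limb.

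The barrier claudins among the genes followed here, Cldn1, Cldn3, Cldn4 and Cldn7, went the other way. Claudins outside these genes were mixed: of 13 others, 7 were higher and 6 lower on day 3 than on day 0. Cldn1, the claudin that seals the skin barrier, measured 0.518 times the percentile on day 0, 4.62 on day 1 and 3.51 on day 3 with the brighter of its 2 probes. It was 8.92-fold higher on day 1 and 6.76-fold higher on day 3, each against day 0. The other probe gave 0.355, 2.26 and 2.74 times the percentile, or 6.37-fold and 7.72-fold higher. Both probes thus placed the difference before day 1, and between day 3 and day 1 they disagreed in sign (-0.40 and 0.28 in log2 ratio). They lie at chr16:26359010-26359069 and chr16:26357372-26357431 (mm9, minus strand).

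Cldn3, a barrier claudin of the distal nephron and the gut, measured 1.54, 3.24 and 11.9 times the percentile on day 0, day 1 and day 3. It was 2.10-fold higher on day 1 and 7.69-fold higher on day 3, each against day 0, and 3.67-fold higher on day 3 than on day 1. Most of its difference therefore came after day 1, unlike that of Cldn1. Cldn4, which with Cldn8 makes a chloride path in the collecting duct, measured 0.209, 0.819 and 1.04 times the percentile on day 0, day 1 and day 3. It was 3.93-fold higher on day 1 and 4.99-fold higher on day 3, each against day 0. The day 1 value passed 4-fold in 4 of 10 other settings, and the day 3 value was under it when arrays were scaled on reference genes (a log2 ratio of 1.75). The probes of Cldn3 and Cldn4 lie at chr5:135463179-135463238 (plus strand) and chr5:135421347-135421406 (minus strand) on mm9.

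Cldn7, a claudin of the collecting duct that also lies along the sides of the cell, measured 9.14, 20.3 and 33.9 times the percentile on day 0, day 1 and day 3. It was 2.22-fold higher on day 1 and 3.71-fold higher on day 3, each against day 0, so it stayed under the 4-fold mark while its signal was higher on each later array. Its probe of 60 bases maps to chr11:69780780-69781089 (mm9, plus strand), a stretch of 310 bases. The stretch is longer than the probe, so the sequence joins separate parts of the gene and is shown for that.
Cldn7 probe: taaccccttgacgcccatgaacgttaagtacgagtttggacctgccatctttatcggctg

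Most markers of the segments in which Cldn3, Cldn4, Cldn7 and Cldn8 are known were lower. Of 6 principal cell markers, 2 were at least 4-fold lower on day 1 and 4 on day 3, each against day 0, and their summed signal was 42.3 times the percentile on day 0, 6.84 on day 1 and 3.25 on day 3. Aqp4 of that list had a log2 ratio of 0.07 for day 3 over day 0 with its brightest probe, though another had -2.62. Of 5 intercalated cell markers, 3 were at least 4-fold lower on day 1 and 4 on day 3, with sums of 16.5, 4.87 and 0.800. Of 4 markers of the distal convoluted tubule, 3 were at least 4-fold lower on both days, with sums of 49.0, 2.54 and 1.17, and Pvalb was not well above background on day 3. All other markers on these lists were well above background on all 3 arrays, so marker genes of several segments were measured in the day 0 sample beside those of the proximal tubule. Marker lists of other cells did not all run lower. The summed signal of 6 fibroblast and smooth muscle markers was 9.32 times the percentile on day 0, 14.6 on day 1 and 20.0 on day 3. Acta2 made up most of that sum with its brightest probe (6.15, 10.9 and 17.2). The log2 ratios of the Acta2 probes ran from -3.10 to 0.82 for day 1 over day 0. For day 3 over day 0 they ran from -0.25 to 1.48. On day 3 against day 0, 3 of the 6 were higher and 3 lower. Col1a1 was at least 4-fold higher in that comparison (a log2 ratio of 2.83), though another of its probes had -0.21. The summed signal of 5 macrophage markers was 13.8, 10.3 and 16.9, most of it from Lyz2 (12.0, 6.12 and 13.4). Of the 5, 3 were higher and 2 lower on day 3 than on day 0, with a median log2 ratio of 0.15. Cd68 was the 1 marker of the 5 at least 4-fold higher on day 1 and on day 3 (3.61 and 2.34 over day 0). The part of any of these cells in the claudin values was not tested.

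Occludin was lower on day 3, by an amount that depended on the processing. Its brighter probe measured 1.01, 0.869 and 0.562 times the percentile on day 0, day 1 and day 3, and was 1.80-fold lower on day 3 than on day 0. The other probe measured 0.0453, 0.0472 and 0.0199, and was 2.27-fold lower. The log2 ratio of the brighter probe for day 3 over day 0 was -0.85, and it lay within the probe spread of 0.47 with normexp (-0.36) and without the multiplicative trend correction (-0.45). Neither differed between day 1 and day 0 by more than the probe spread, with log2 ratios of -0.22 and 0.06. The dimmer Ocln probe begins at base 209 of the transcript and maps to chr13:101309849-101311042 (mm9, minus strand), a stretch of 1194 bases, so it too joins separate parts of the gene. The brighter one lies at chr13:101268114-101268173, beginning at base 2340. The dimmer probe is shown since it reads the other end of the transcript.
Ocln probe at base 209: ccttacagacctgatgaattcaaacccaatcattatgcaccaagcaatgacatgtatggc

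Tjp1 had no settled direction. Its brighter probe, at chr7:72441703-72441762 (mm9, minus strand), measured 1.05, 1.42 and 1.90 times the percentile on day 0, day 1 and day 3, and was 1.81-fold higher on day 3 than on day 0. Its other probe, at chr7:72458154-72458213, measured 0.163, 0.125 and 0.132, and was 1.24-fold lower on day 3 than on day 0. The probes disagreed in sign on day 1 as well (0.44 and -0.39 in log2 ratio over day 0), and scaling on reference genes turned the brighter probe's day 1 value to -0.01.

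Counted together, 1 of the 10 genes was at least 4-fold higher on day 1 than on day 0 (Cldn1), where 3.38% of the 18895 genes compared were. At least 4-fold lower were 2 (Cldn2 and Cldn10), where 5.15% of all genes were. On day 3 against day 0, 3 were at least 4-fold higher (Cldn1, Cldn3 and Cldn4), against 5.35% of 18998 genes, and 2 were at least 4-fold lower (Cldn2 and Cldn10), against 7.85%. On day 3 against day 1, 1 was at least 4-fold higher (Cldn16), against 1.62% of 18920 genes, and 0 were at least 4-fold lower, against 1.27%. The median log2 ratio of the 10 genes was 0.50 for day 1 over day 0, 0.87 for day 3 over day 0 and 0.29 for day 3 over day 1, and that of all genes was -0.11, -0.11 and -0.04. With 10 genes named one by one for their roles, these shares carry no test. The comparisons with day 0 share that array, so they are not independent of each other.

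**Figure D3:**
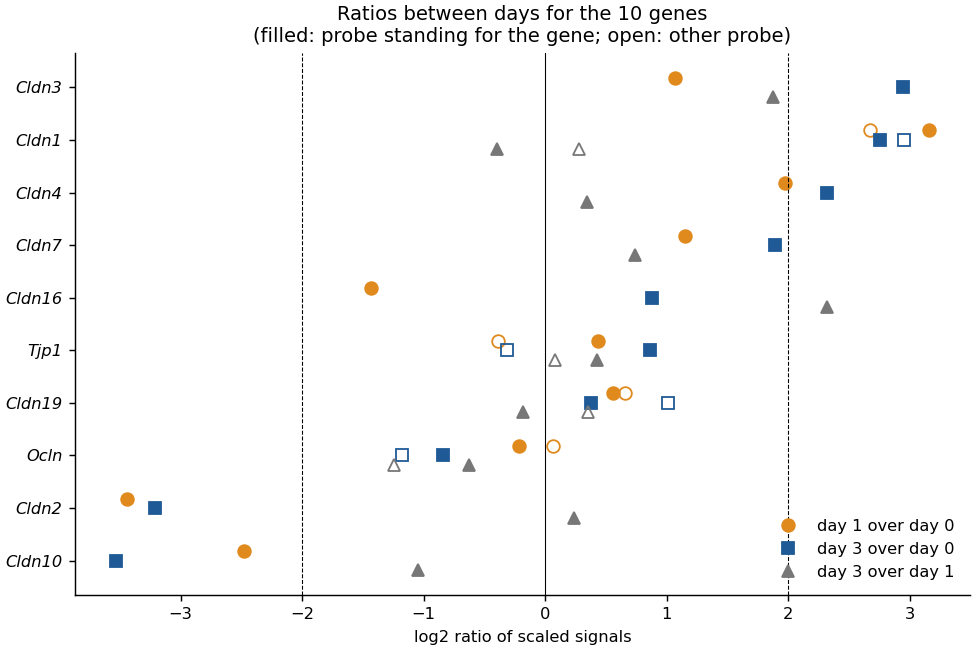
Log2 ratio of the scaled signals (x axis) for the 10 genes (y axis), sorted by the ratio of day 3 over day 0. Circles are day 1 over day 0, squares day 3 over day 0 and triangles day 3 over day 1, filled for the probe that stands for the gene and open for its other probe. Dashed lines mark 4-fold. Cldn3 and Cldn10 stand at the ends with 2.94 and -3.53 for day 3 over day 0, and the 2 Tjp1 probes lie on either side of 0.

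The wider tight junction list held 50 genes and left out the 10. Its median log2 ratio was -0.10 for day 1 over day 0, -0.10 for day 3 over day 0 and 0.21 for day 3 over day 1. Of the 50, Jam2 and Ybx3 were higher by at least 4-fold on day 1 than on day 0, and Cldn8 was lower by as much. On day 3 against day 0 there were 3 higher and 5 lower, and on day 3 against day 1 there was 1 higher and 0 lower. The background shares are those given for the 10 genes.

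Of the 13 other claudins, Cldn23 was higher and Cldn8 and Cldn15 were lower by at least 4-fold on day 3 than on day 0. Cldn8, the collecting duct partner of Cldn4, measured 6.37, 0.534 and 0.986 times the percentile on day 0, day 1 and day 3, and was 11.9-fold lower on day 1 and 6.46-fold lower on day 3, each against day 0. Cldn8 and Cldn4 therefore ran in opposite directions. Cldn15, a cation pore best known from the gut, was 5.21-fold lower on day 3 than on day 0. Cldn23 was 4.53-fold higher on day 3 than on day 0, with signals of 0.0229, 0.0765 and 0.104 times the percentile on day 0, day 1 and day 3, and was under 4-fold with reference gene scaling (a log2 ratio of 1.61) and with normexp (1.51). Below 4-fold, Cldn17, an anion pore, was 3.83-fold lower on day 3 than on day 0. Cldn14, which blocks the channel of Cldn16 and Cldn19 in the thick ascending limb, was 2.33-fold lower, and Cldn5, the claudin of endothelium, 2.71-fold lower. With reference gene scaling, Cldn17 (a log2 ratio of -2.51) and Cldn5 (-2.01) were past 4-fold. The 7 endothelial markers other than Cldn5 were all lower on day 3 than on day 0, with a summed signal of 30.6 times the percentile on day 0, 17.2 on day 1 and 6.17 on day 3. The part of these cells in the Cldn5 value was not tested.

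Among 13 membrane proteins of the junction other than claudins, Jam2 and Jam3 passed 4-fold. Jam2, a junctional adhesion molecule, measured 0.210, 1.31 and 0.576 times the percentile on day 0, day 1 and day 3, and was 6.26-fold higher on day 1 than on day 0. The other Jam2 probe had a log2 ratio of 1.47 in that comparison, under 4-fold. Jam3 measured 6.95, 2.96 and 1.29 times the percentile, and was 5.40-fold lower on day 3 than on day 0. Lsr, the angulin that marks corners where cells meet, measured 15.8, 42.5 and 52.6 times the percentile, and was 3.33-fold higher on day 3 than on day 0. In that comparison Lsr was past 4-fold with median centring (a log2 ratio of 2.04) and spike-in scaling (2.11). F11r, the junctional adhesion molecule A, stayed near its first level at 31.9, 35.4 and 36.2 times the percentile. Cxadr, the coxsackievirus and adenovirus receptor, had probes that disagreed: the brightest gave log2 ratios of -0.41 and -0.21 for day 1 and day 3 over day 0, and the others 2.57 and 2.89 on day 1 and 2.18 and 2.97 on day 3.

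Among 24 plaque and polarity proteins, Ybx3 and Amotl1 were higher and Magi2 and Mpdz lower by at least 4-fold on day 3 than on day 0. Ybx3, the transcription factor that binds ZO-1, measured 0.136, 1.04 and 1.42 times the percentile on day 0, day 1 and day 3, and was 7.64-fold higher on day 1 than on day 0, with a log2 ratio of 3.39 for day 3 over day 0. Among genes of the 50 that were higher, each by the probe that stands for it, Ybx3 had the largest ratio in both comparisons. The scaffold it binds, Tjp1, had no settled direction. Amotl1, an angiomotin-like protein, was 5.42-fold higher on day 3 than on day 0 with its brighter probe. That probe was under 4-fold with reference gene scaling (1.87 in log2 ratio). The other Amotl1 probe had a log2 ratio of 3.78 for day 3 over day 0. Amot itself was 4.32-fold higher on day 3 than on day 1, after a log2 ratio of -1.75 for day 1 over day 0, and was under 4-fold in 3 other settings (1.85 to 1.99). Magi2 and Mpdz, scaffolds with many PDZ domains, were 4.23-fold and 5.64-fold lower on day 3 than on day 0, though another Mpdz probe had a log2 ratio of -0.24, and Magi2 was under 4-fold with spike-in scaling (-1.70) and median centring (-1.77). Podocytes also use Magi2, and the summed signal of 5 podocyte markers was 9.02 times the percentile on day 0, 1.82 on day 1 and 2.35 on day 3. The part of podocytes in the Magi2 value was not tested.

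The following plaque and polarity proteins were below 4-fold on day 3 over day 0 with the probe that stands for the gene. Tjp3, a relative of ZO-1, had log2 ratios of -1.51 for day 1 over day 0 and -0.41 for day 3 over day 0. The polarity kinase Prkci was 3.52-fold higher on day 3 than on day 0, and past 4-fold in 3 other settings (log2 ratios of 2.08 to 2.19). Its relative Prkcz was 2.05-fold lower with its brightest probe, and its other probes had log2 ratios of -2.94 and -0.48 in that comparison. Cingulin, Cgn, was 2.75-fold higher with its brightest probe, while its other probes had log2 ratios of -0.75 and 2.06. Its relative Cgnl1 measured 64.8, 37.4 and 29.4 times the percentile on day 0, day 1 and day 3. Magi1 had a log2 ratio of 0.00 for day 3 over day 0 with its brightest probe, while its other probes had -1.68 and 0.59.

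**Figure D4:**
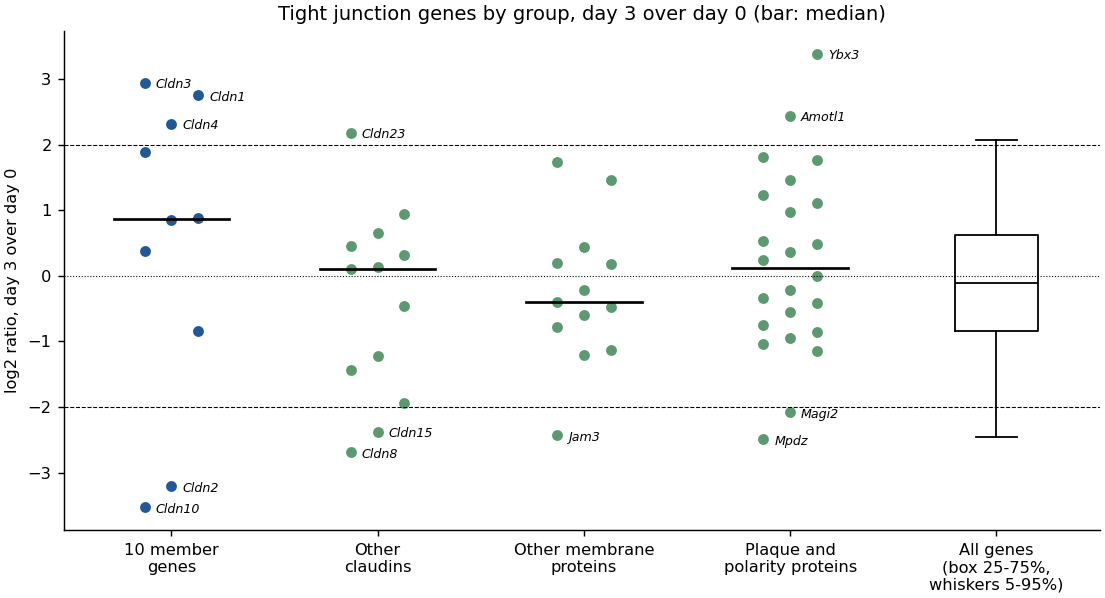
Log2 ratio of day 3 over day 0 (y axis) for the 10 genes, the 13 other claudins, 13 other membrane proteins and 24 plaque and polarity proteins of the tight junction, 1 point per gene, with the group median as a bar and all genes as a box from the 25th to the 75th percentile. Dashed lines mark 4-fold, and genes past them are named. The median was 0.87 for the 10 genes and -0.11 for all genes.

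Claudin genes that lie close together did not always run together. The probes of Cldn4 and Cldn3 lie 41.8 kb apart on chromosome 5 (mm9), and both genes were higher on day 3 than on day 0, Cldn4 by a log2 ratio of 2.32 and Cldn3 by 2.94. The probe of Cldn13 lies 30.6 kb on the other side of Cldn4, and Cldn13 had a log2 ratio of 0.13. On chromosome 16, Cldn17 and Cldn8 lie 54.7 kb apart and had -1.94 and -2.69. Cldn1 and Cldn16, 115 kb apart on the same chromosome, had 3.16 and -1.43 for day 1 over day 0, and 2.76 and 0.88 for day 3 over day 0. Cldn6 and Cldn9, the closest pair at 1.08 kb on chromosome 17, had -0.20 and -1.23 for day 1 over day 0, and 0.95 and -0.46 for day 3 over day 0. Some neighbours thus shared a direction and others did not.

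The genes most like the outermost of the 10 were sought among 18328 genes. The measure was the Euclidean distance between the log2 signals on the 3 arrays, each gene centred on its own mean. Nearest to Cldn3 were Chst13, Gja1 (the gap junction protein connexin 43) and Mcm8, at distances of 0.046, 0.057 and 0.078, and 104 genes lay within 0.5. Nearest to Cldn10 were Agtr1a (the type 1a angiotensin receptor), Elovl2 and Cyp4f14, at 0.055, 0.070 and 0.076, and 193 genes lay within 0.5. The measure rests on 3 arrays, and nothing more is read from it.

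All 10 genes matched RefSeq promoter windows on GRCm38.p6, 14 windows in all, each from 250 bases before to 50 after a transcript's start. They were searched on both strands for letters of factors known from tubule cells and from cultured epithelium, and the shares below are of all 32851 windows. TGANTCA, the AP-1 motif, was in 7.81% of windows and, of the 10 genes, only in that of Cldn4, with matches 240 and 158 bases before the start. GGAATG, the Tead motif, was in 14.7% of windows and in 3 of the 14, those of Cldn2 and Cldn16 and 1 of the 2 of Cldn7. GTTAAT, part of the Hnf1 motif, was in 7.1% of windows and in 2 of the 14, that of Cldn1 and 1 of the 2 of Cldn10. CAAAGTCCA (Hnf4, 0.475% of windows) and AACNNGTT (Grhl, 4.2%) were in none of the 14. The windows of Cldn4, which was higher in culture, and of Cldn2, which was lower, are printed as the claudins of opposite direction that hold more than 1 match. The capitals mark TGANTCA in Cldn4 (chr5:134946885-134947184, minus strand) and GGAATG, on either strand, in Cldn2 (chrX:139800558-139800857, plus strand).
Cldn4 promoter: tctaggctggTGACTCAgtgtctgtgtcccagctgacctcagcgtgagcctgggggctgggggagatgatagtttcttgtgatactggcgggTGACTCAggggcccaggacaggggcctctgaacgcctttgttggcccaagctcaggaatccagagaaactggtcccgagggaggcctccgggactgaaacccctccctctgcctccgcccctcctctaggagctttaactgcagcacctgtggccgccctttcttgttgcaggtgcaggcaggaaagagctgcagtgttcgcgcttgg
Cldn2 promoter: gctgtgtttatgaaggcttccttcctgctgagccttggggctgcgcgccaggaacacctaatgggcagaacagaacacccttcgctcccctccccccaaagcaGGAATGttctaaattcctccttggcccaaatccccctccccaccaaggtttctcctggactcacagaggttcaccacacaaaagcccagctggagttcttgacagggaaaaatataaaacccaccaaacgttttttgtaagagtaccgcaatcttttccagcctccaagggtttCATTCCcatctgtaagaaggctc
A match is a description of these letters in this window and not of a bound factor.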

How the data were processed

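Per the file headers, the authors deposited the processed signal of every spot, an intensity with background subtracted and spatial trends corrected, and flags (of other kind) that mark outliers, saturation and spots well above background. Per the file headers the trend correction included a multiplicative step on the arrays of day 0 and day 1 and not of day 3. Feature Extraction was version 10.5.1.1 per the file headers and 9.1 per the submitters' processing notes. The authors also deposited a ratio, and all 43379 values per array lay within 0.001 of the processed signal over the array's 75th percentile.

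Here the log2 processed signal minus that percentile was used, over non-control spots without an outlier flag, with spots of 1 probe averaged. Probes were named by transcript accession in the RefSeq gene table, then by symbol or unambiguous synonym. A gene is represented by its brightest probe, by mean over the days. All probe values of the 10 genes are given. Other genes were named when at least 4-fold apart in any comparison, or by role as examples below it. Genes entered a comparison when well above background on either array, and a side below background was set to the lowest signal well above it (0.0114, 0.0106 and 0.00936 of the percentile on day 0, day 1 and day 3) or the probe's own signal if higher. With 1 array per day nothing was tested, and precision is limited by this number. The 10 genes, the gene and marker lists and the motifs were chosen with earlier results of these data known. Cldn20 was not analysed here. A gene of the wider list is not reported here. The steps were tested on simulated data, with planted changes larger than 4-fold and spot noise only. That test left out the spread between probes of a gene and the scaling of arrays. It therefore does not bear on how firm the 4-fold counts are. Python 3.11.15, pandas 2.3.3, R 4.3.3 and limma 3.58.1 were used, limma for the alternative with normexp (offset 50) and quantile normalization. Coordinates of probes were read from the array files (mm9), and no exon annotation of that build was used here.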

Additional observations from a re-analysis of the deposited data

How the results depend on the processing

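No paired analysis was possible because each day has 1 array, so no value comes from a test and no replicate can be left out or paired. Each of the 30 ratios of the 10 genes was recomputed under 10 settings. Of the 300 values, 272 moved by less than the probe spread and 28 moved by more. None of the 9 ratios of at least 4-fold changed sign. Part of this tally was fixed beforehand. Keeping outlier spots or dim probes left all 30 ratios unchanged, and the deposited ratio is the same measure as the main one. Averaging probes cannot move a gene with 1 probe. A sign changed in 3 ratios under 4-fold: Cldn19 for day 3 over day 0 (-0.19 with reference gene scaling), Cldn19 for day 3 over day 1 (0.09 with the mean of its probes and 0.01 with spike-in scaling) and Tjp1 for day 1 over day 0 (-0.01 with reference gene scaling). Against the 75th percentile, reference genes had log2 ratios of 0.44 on day 1 and 0.57 on day 3 over day 0, spike-in controls -0.18 and -0.38, and the median spot -0.21 and -0.31. Scaling on any of them moves every ratio by that amount the other way, so it could not turn the sign of a 4-fold ratio. For reference genes the amount passed the probe spread in both comparisons with day 0 (0.34 and 0.47). Every value of those comparisons with reference gene scaling is therefore among the 28. Cldn4 passed 4-fold on day 1 over day 0 in 4 of the 10 settings and Cldn7 on day 3 over day 0 in 2. Spike-in scaling also brought Cldn3 for day 3 over day 1 past it (2.07). Mpdz for day 3 over day 0 was under 4-fold with normexp (-1.83) and when its probes were averaged (-1.37).

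Counts moved by over 1.5 times as follows. Of the 10 genes, 2 were at least 4-fold higher on day 1 than on day 0 with median centring, quantile normalization, spike-in scaling or no multiplicative trend correction, and 2 on day 3 than on day 1 with spike-in scaling. At a 2-fold threshold, 4 of them were higher on day 1 than on day 0, and 2 were higher and 1 lower on day 3 than on day 1. Of the 50 genes, with reference gene scaling 4 were at least 4-fold lower on day 1 and 1 higher on day 3, each against day 0, and 6 were higher on day 3 with median centring or spike-in scaling. On day 3 against day 1, 0 were higher with reference gene scaling, normexp with quantile normalization or no multiplicative trend correction. At 2-fold, 8 of the 50 were higher and 9 lower on day 1 and 10 higher and 12 lower on day 3, each against day 0, and 4 higher and 6 lower on day 3 against day 1. Over all genes, reference gene scaling gave 383 at least 4-fold higher and 1534 lower on day 1, and 606 higher and 2668 lower on day 3, each against day 0. Spike-in scaling gave 1533 higher on day 3 against day 0, and normexp with quantile normalization 118 lower on day 3 against day 1. At 2-fold, 2557 were higher and 2887 lower on day 1, 3152 higher and 4095 lower on day 3, each against day 0, and 1322 higher and 1532 lower on day 3 against day 1. The cause of these shifts was not tested.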
